A study of Mus musculus with 8 samples.

Results

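Vmn1r genes encode the type 1 vomeronasal receptors, G protein-coupled receptors that face the lumen of the vomeronasal organ and bind pheromones and other social cues. Each sensory neuron of the apical layer is known to express mainly 1 of these receptors, and the signal runs through a G protein of the Gi type, a phospholipase C and the cation channel Trpc2. Most mouse Vmn1r genes stand in tandem clusters on chromosomes 6 and 7. The genes described here are those named Vmn1r with a number that the deposited files place on any other chromosome. The rule found 47 such genes among 172 Vmn1r genes and 48831 genes in all: 31 on chromosome 13, 13 on chromosome 17, Vmn1r1 on chromosome 1, Vmn1r238 on chromosome 18, and Vmn1r186 on the scaffold GL456219.1, a piece of sequence without a chromosome in GRCm38 that RefSeq assigns to chromosome 7. All 47 are annotated as protein_coding.

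RNA was sequenced from the vomeronasal epithelium of 8-week-old C57BL/6J mice in 8 libraries, with 2 libraries in each of 4 groups. Male pools and female pools were made from non-flushed tissue of 2 mice per library, and male flushed and female flushed libraries from the tissue of 1 mouse each, flushed of blood. The description of each pool calls it non-flushed, whereas the protocol attached to every library speaks of mice cleared of blood with heparin, so the label of the library was followed. Flushing, mice per library and, per the file headers, sequencing lane and folder date all changed together, and their parts in any difference cannot be told apart. Library totals ran from 18763557 to 24965088 counts. Markers of red blood cells summed to between 1644 and 2050 CPM in the pools and, among the flushed libraries, to 104.8 and 114.2 CPM in females and 596.2 and 618.7 CPM in males. The 4 markers of apical sensory neurons, the type that carries V1R receptors, summed to between 766.3 and 837.4 CPM in the pools and between 742.7 and 772.5 CPM in the flushed libraries. Trpc2 itself was listed at 0 in every library, while Xntrpc, an annotated gene on the same strand that spans Trpc2, had 27.1 ± 3.94 CPM in the pools and 26.5 ± 2.04 CPM in the flushed libraries (SD, n = 4 each).

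On chromosome 13 the 31 genes lie between positions 22087878 and 23255354 of GRCm38, a span of 1.17 Mb with a median gap of 24.1 kb between neighbouring members. Of these, 19 carry V1rh names and 7 carry V1ri names among the RefSeq synonyms, which preserve the older division of the family into clades, and 5 have no such name. On chromosome 17 the 13 genes lie between 20419163 and 21326236, a span of 0.91 Mb with a median gap of 39.1 kb, and 7 are V1re genes, 5 are V1rf genes and 1 has no clade name. Among the genes counted by the authors, the chromosome 13 span holds no other annotated protein-coding gene than Vmn1r207-ps. The chromosome 17 span also holds Fpr-rs3, Vmn2r108, Vmn2r109 and Vmn2r110, which belong to the other vomeronasal receptor families, and Ppp2r1a and Zfp160. Vmn1r pseudogenes number 45 within the first span and 10 within the second. Vmn1r1 and Vmn1r238 had no other intact Vmn1r gene within 500 kb. Vmn1r186 had none on its scaffold, whose position relative to the clusters is not given in the sources used here. GENCODE M21 also lists Vmn1r2 and Vmn1r3 on chromosome 4, Vmn1r216 to Vmn1r218 on chromosome 13 and Vmn1r229 on chromosome 17, which were not analysed here.

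Coding sequences were much closer within the chromosome 13 cluster than within the chromosome 17 cluster, which can bear on how reads were divided among genes. The closest Vmn1r coding sequence of a chromosome 13 gene was 76.5 to 96% identical to it (median 91.4%) and always lay in the same cluster, where a gap inside the alignment counts as a difference in the percentage. For chromosome 17 genes the range was 63.5 to 82.4% (median 79.4%), and 12 of 13 had their closest relative in the cluster. The median identity over all pairs was 73.5% within chromosome 13, 61.95% within chromosome 17 and 54.4% between the clusters. The pair with the highest identity on chromosome 13 is Vmn1r206 and Vmn1r209, with 38 differences in 939 aligned coding bases and a longest identical run of 194 bases. The lines below give 90 coding bases of each (positions 36 to 125 from the start codon, chr13:22620911-22621000 and chr13:22806394-22806483, both on the minus strand), in a stretch that differs about as often as the whole pair, with the differing bases in capitals.
Vmn1r206: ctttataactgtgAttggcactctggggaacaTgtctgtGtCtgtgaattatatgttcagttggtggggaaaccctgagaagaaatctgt
Vmn1r209: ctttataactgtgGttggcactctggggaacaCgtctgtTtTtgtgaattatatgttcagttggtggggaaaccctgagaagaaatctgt
The second closest pair on that chromosome, Vmn1r189 and Vmn1r221, has 41 differences in 939 aligned bases. Coding positions 171 to 260 of both are shown in the same way (chr13:22102406-22102495 on the minus strand and chr13:23217543-23217632 on the plus strand).
Vmn1r189: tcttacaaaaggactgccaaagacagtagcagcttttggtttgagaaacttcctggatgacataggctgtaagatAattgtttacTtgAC
Vmn1r221: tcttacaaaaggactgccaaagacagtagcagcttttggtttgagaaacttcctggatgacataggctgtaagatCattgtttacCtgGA

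The closest pair of chromosome 17, the V1re genes Vmn1r225 and Vmn1r232, has 152 differences in 894 aligned bases and no identical run longer than 27 bases. The stretches shown are chr17:20502308-20502397 on the plus strand and chr17:20914103-20914192 on the minus strand, again with differing bases in capitals.
Vmn1r225: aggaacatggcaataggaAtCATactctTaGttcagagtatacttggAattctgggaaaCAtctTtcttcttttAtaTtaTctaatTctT
Vmn1r232: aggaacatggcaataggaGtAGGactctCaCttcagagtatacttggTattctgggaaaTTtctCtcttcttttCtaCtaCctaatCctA
Vmn1r237, the V1rf gene with the largest count, is 66.8% identical to its closest relative Vmn1r236, with 264 differing bases in 854 aligned bases beside the gaps (chr17:21286979-21287068 and chr17:21314284-21314373, both on the plus strand).
Vmn1r236: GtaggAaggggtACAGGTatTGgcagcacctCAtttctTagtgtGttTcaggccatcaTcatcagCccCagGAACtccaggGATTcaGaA
Vmn1r237: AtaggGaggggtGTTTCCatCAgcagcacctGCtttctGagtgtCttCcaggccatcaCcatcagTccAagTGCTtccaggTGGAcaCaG

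Counts of shared reads were set beside this likeness, and they went with it only in part. The authors' counting gave a read with several alignments a fraction in each place, so a count that is not whole marks shared reads. On chromosome 13, 18 of 31 genes had such a count in 4 or more of the 8 libraries, and 20 shared at least 1 stretch of 100 coding bases, the length of a read, with another GENCODE transcript. On chromosome 17, 1 of 13 genes had such counts in 4 or more libraries and 0 shared a stretch of that length. The exception was Vmn1r237, whose counts were not whole in 6 libraries although no coding stretch of 100 bases was shared. On chromosome 13, Vmn1r194 and Vmn1r188 shared none either, and their counts were not whole in 8 and 5 libraries. Vmn1r198, Vmn1r199 and Vmn1r200 were 89.1, 91.9 and 91.8% identical to their closest relatives and had whole counts in every library. Non-coding stretches were counted too but not compared, and the source of the shared reads was not tested. The largest shared part on chromosome 13 was that of Vmn1r208, with 63% of its coding stretches of 100 bases, followed by Vmn1r223 with 23.1%, Vmn1r209 with 17.4% and Vmn1r206 with 15.6%. Vmn1r238 was 98.9% identical to Vmn1r79 of chromosome 7 and shared 51.1% of its stretches. Vmn1r1 was 66.5% identical at most (to Vmn1r48 of chromosome 6), shared none and had whole counts in every library. Levels of genes with shared reads are uncertain, and the even division of such reads makes similar genes look more alike than their own reads would.

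**Figure D1:**
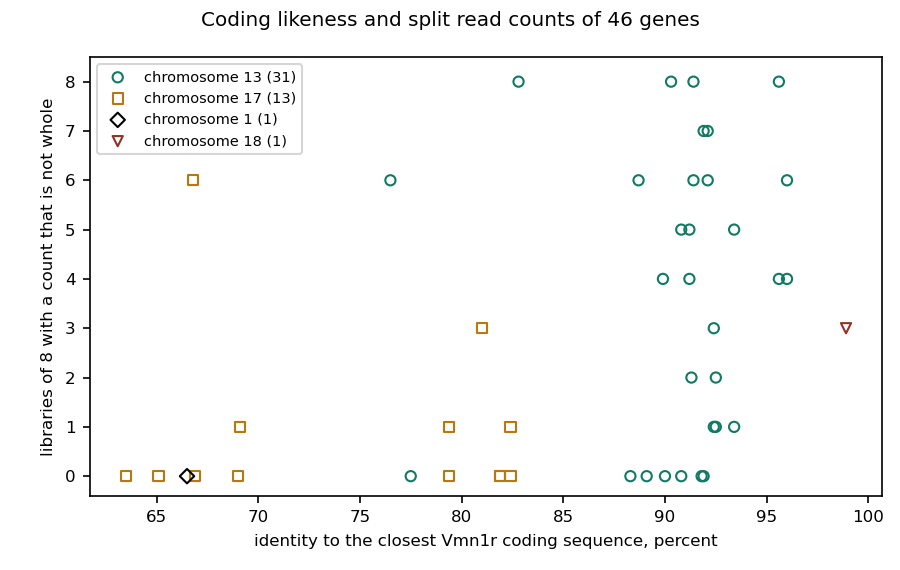
Each point is 1 of the 46 genes with a coding sequence in GENCODE M21, with its identity to the closest Vmn1r coding sequence (percent) on the x axis and the number of libraries, of 8, in which its count was not whole on the y axis. Most chromosome 13 genes (circles) lie between 88.3 and 96%, with 0 to 8 libraries, while 8 of 13 chromosome 17 genes (squares) had whole counts throughout.

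A gene's level also depended on how much of it was counted, and that differed by strand. For the 26 members on the plus strand the authors' exons covered a median of 6627.5 bases (2191 to 16673), and for the 21 on the minus strand a median of 951 bases (897 to 1443), about the coding sequence alone. The counted features held a median of 83.8% of GENCODE's exon bases of a gene on the plus strand and 26.3% on the minus strand. On the minus strand GENCODE's exons reached a median of 1965 bases past the counted 3′ end. On the plus strand counting ran a median of 1277 bases past GENCODE's 3′ end, with 11324 bases for Vmn1r237 and 12823 bases for Vmn1r225. The median of mean levels was 6.56 CPM on the plus strand and 1.42 CPM on the minus strand, against 0.854 and 1.3 RPKM (CPM per kilobase of counted exon). Levels of different genes were therefore compared by RPKM, and CPM (counts scaled to a library size of 1e+06) served for differences within a gene and for shares and ranks that are named as counts. A comparison of 2 genes on opposite strands sets coding sequence alone against long 3′ stretches.

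**Figure D2:**
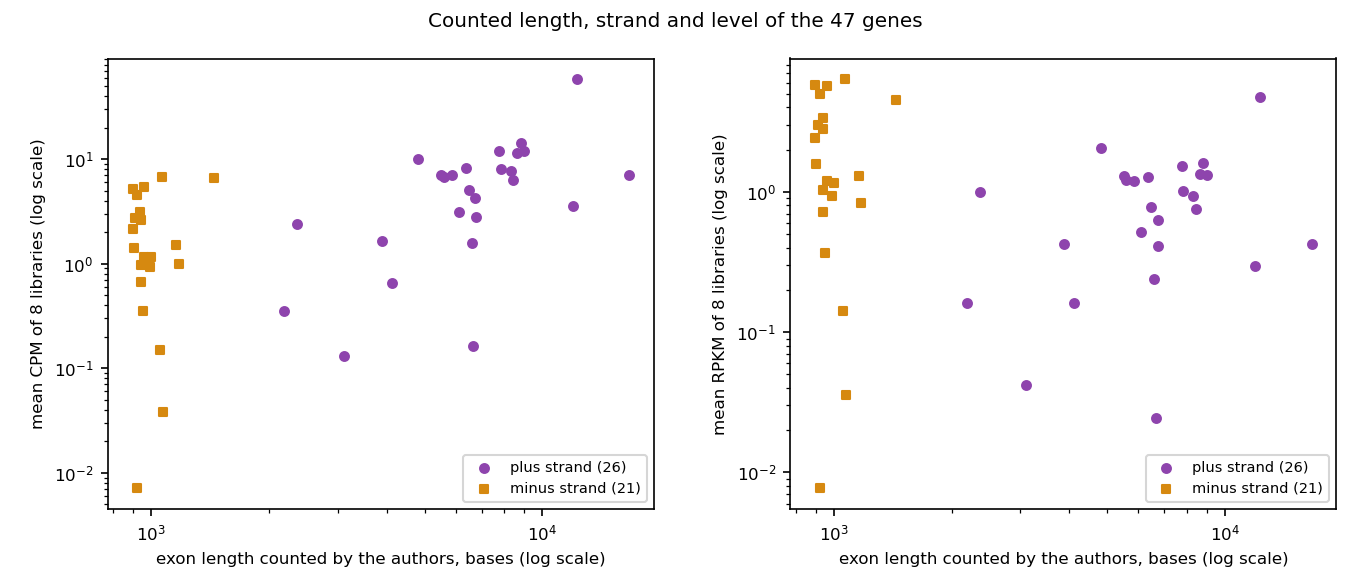
Mean CPM (left) and mean RPKM (right) of the 47 genes over 8 libraries against the exon length counted by the authors, all on log scales, with circles for the plus and squares for the minus strand. The minus-strand genes form a narrow column between 897 and 1443 bases, and their lower CPM values are not lower in RPKM.

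The genes outside chromosomes 6 and 7 gave 45% of all Vmn1r counts (mean of 8 libraries, 42.95 to 46.42%), and were expressed over a wide range. This share is of counts, which grow with counted length. The median counted length on the plus strand was 6627.5 bases for the members and 3708 for the Vmn1r genes of chromosomes 6 and 7. On the minus strand it was 951 and 996.5 bases. Of the 47, 43 were counted in every library and 38 had a mean count of 20 or more. Their median level was 1.03 RPKM, with 1.02 on chromosome 13 and 1.29 on chromosome 17, beside 0.888 for the 33 genes of chromosome 6 and 0.161 for the 92 of chromosome 7. All 13 chromosome 17 genes had a mean count above 20, against 23 of 31 on chromosome 13. These medians are descriptions and were not tested, since the genes are not replicates and the counted lengths differ.

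The 4 highest members by mean RPKM over the 8 libraries were the V1ri gene Vmn1r192, the V1rh genes Vmn1r220 and Vmn1r210, and the V1rf gene Vmn1r233. All stand on the minus strand. Their coding starts are shown with the start codon in capitals, beside those of Vmn1r237 and of the isolated Vmn1r1 (chr13:22187989-22188048, chr13:23184465-23184524, chr17:20994627-20994686, chr13:22828055-22828114, chr17:21314017-21314076 and chr1:182158039-182158098 in the order printed, on the minus strand except Vmn1r237).
Vmn1r192: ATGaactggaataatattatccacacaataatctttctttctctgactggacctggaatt
Vmn1r220: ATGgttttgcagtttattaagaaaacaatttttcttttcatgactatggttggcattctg
Vmn1r233: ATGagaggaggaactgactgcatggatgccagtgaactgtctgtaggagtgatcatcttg
Vmn1r210: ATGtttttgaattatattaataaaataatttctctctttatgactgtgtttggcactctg
Vmn1r237: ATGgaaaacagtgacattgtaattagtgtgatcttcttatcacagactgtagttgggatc
Vmn1r1: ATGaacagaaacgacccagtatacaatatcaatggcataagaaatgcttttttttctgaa
Vmn1r192 was at 3.88, 5.17, 3.26 and 4.6 RPKM in the male and female pools and at 8.73, 8.08, 9.98 and 7.31 RPKM in the female and male flushed libraries, with a mean of 6.37 ± 2.47 RPKM (SD over 8 libraries). Every flushed library was above every pool. Vmn1r220 followed with 5.78 ± 1.22 RPKM, Vmn1r233 with 5.66 ± 1.92, Vmn1r210 with 4.97 ± 0.794 and Vmn1r237 with 4.75 ± 1.93 RPKM. Neighbours in this order differed by less than their SD. The order was not the same in the 2 preparations. Vmn1r210 (5.07 ± 1.04 RPKM) and Vmn1r220 (5.01 ± 1.02) had the highest means in the pools, ahead of Vmn1r192 (4.22 ± 0.833). In the flushed libraries Vmn1r192 (8.52 ± 1.13) and Vmn1r233 (7.35 ± 0.762) were highest, and Vmn1r210 (4.88 ± 0.611) stood below the V1re gene Vmn1r228 (6.63 ± 1.07) and Vmn1r237 (6.54 ± 0.286, SD, n = 4 each). In the order of all 172 Vmn1r genes by RPKM, Vmn1r192 stood at place 7 and Vmn1r237 at place 14.

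By counts alone Vmn1r237 stood first of all 172 Vmn1r genes, at 58.3 CPM against 19.5 CPM for Vmn1r51, the next. It held 23.5% of the members' counts, and together with Vmn1r196, Vmn1r194 and Vmn1r236 38.8%. It was counted over 12274 bases, of which 11324 lie past GENCODE's 3′ end. On the RPKM scale it was at 0.745 times the level of Vmn1r192.

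At the other end, the 4 lowest members that entered the test were Vmn1r201 (0.16 RPKM), Vmn1r215 (0.162), Vmn1r234 (0.239) and Vmn1r221 (0.298). These 4 stand on the plus strand. The 5 members that did not enter the test had mean counts under 5. Vmn1r195 and Vmn1r204 had at most 6 and 5 counts in any library. Vmn1r222 had at most 6, and Vmn1r212 had 2 counts in 1 male pool, 5 in 1 flushed male and 0 in the other 6 libraries. Vmn1r238 had 0 in 5 libraries and at most 0.75 of a count, all in fractions, and its sequence is nearly that of Vmn1r79. A count of 0 allows up to 3 counts, or 0.118 to 0.172 CPM in these libraries, for counting error only. No member was at 0 in every library.

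**Figure D3:**
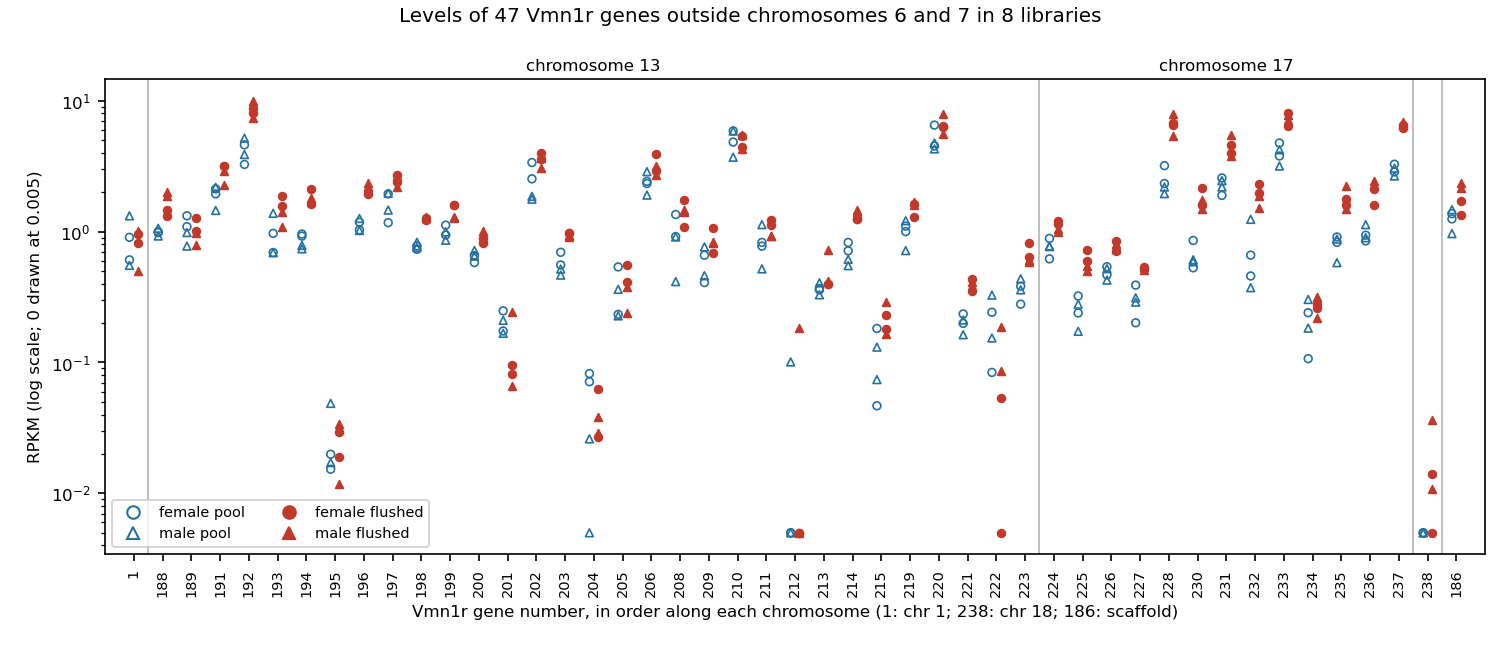
RPKM of the 47 genes in each library (y axis, log scale, with 0 drawn at 0.005) in their order along each chromosome (x axis), with open blue symbols for pools, filled red symbols for flushed single mice, circles for females and triangles for males. Vmn1r192, Vmn1r220, Vmn1r233, Vmn1r210 and Vmn1r237 have the highest means over the 8 libraries, with another order in pools than in flushed libraries, and on chromosome 17 the red symbols lie above the blue ones in 12 of 13 genes.

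Closely related genes of the chromosome 13 cluster, not next to each other in it, could stand at different levels even where strand and counted length were equal. Vmn1r206 and Vmn1r209, both counted over 939 bases of the minus strand, were at 2.78 ± 0.612 and 0.714 ± 0.214 RPKM (SD over 8 libraries), a ratio of 3.89. The lowest value of Vmn1r206, 1.9 RPKM, was above the highest of Vmn1r209, 1.07 RPKM. Vmn1r210 and Vmn1r205, also both on the minus strand and 92.4% identical, were at 4.97 and 0.367 RPKM, with ranges of 3.7 to 5.88 and 0.227 to 0.553 that do not overlap. Vmn1r189 and Vmn1r221 were at 1.03 and 0.298 RPKM, but lie on opposite strands with 939 and 11958 counted bases. The pairs were chosen for their identity except that of Vmn1r210, which was picked after its values were seen, and the ratios are descriptions.

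Flushed single mice had higher levels of most members than the pools. Of the 42 members tested, 27 rose and 0 fell (edgeR, adjusted p under 0.05), with a median log2 difference of 0.68 and a range of -0.74 to 1.5. Over all 20601 genes tested, 22.6% were called higher, 4721 genes were called lower and the median was -0.02. Among the 77 tested Vmn1r genes of chromosomes 6 and 7, 53 rose, 0 fell and the median was 0.77. In 26 members all 4 flushed libraries lay above all 4 pools, as in 21.3% of all genes tested, and in 0 members all lay below. Within females alone 18 members rose, beside 13.2% of all genes, and within males alone 20, beside 12.3%. Of the 27 calls, 26 held whichever 1 of the 8 libraries was left out, and the exception was Vmn1r191, at 1.3 to 1.96 CPM in the pools and 2.02 to 2.86 CPM in the flushed libraries (adjusted p = 0.021). It lost its call without male pool 2, female pool 2, flushed female 2, flushed female 3 or flushed male 1. Other members passed as higher with 1 library left out: Vmn1r193 and Vmn1r206 (without male pool 2), Vmn1r215 (without female pool 1), Vmn1r208 and Vmn1r220 (without female pool 2), and Vmn1r208 and Vmn1r186 (without flushed female 3). Of these, Vmn1r193, Vmn1r208, Vmn1r220 and Vmn1r186 also passed with all 8 libraries when genes of low count were not filtered out. In that edgeR fit the adjusted p of Vmn1r237 went from 1.4e-05 to 8.3e-58 at nearly the same log2 difference, and that of Vmn1r209 from 0.13 to 0.18. The share of all genes called was not computed without the filter or with 1 library left out. The added calls therefore cannot be read as a result about these members. Vmn1r201 passed as lower without flushed male 1. In bulk tissue, fewer cells that express a receptor and less RNA per cell cannot be told apart.

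Members on chromosome 17 were called higher more often than those on chromosome 13, and their median difference was larger. This contrast is described here by counts and medians and was not tested. On chromosome 17, 12 of 13 genes rose, with a median of 1.13, and all but Vmn1r234 had flushed libraries wholly above the pools. On chromosome 13, 15 of 27 tested genes rose, with a median of 0.61. The number of calls also depends on depth, since a gene of low count passes less easily. The median of mean levels was 2.61 CPM over the 31 genes of chromosome 13 and 6.53 CPM over the 13 of chromosome 17. The part of depth in the calls was not tested. By older name, 7 of 7 V1re genes rose (median 1.22), 4 of 5 V1rf genes (1.13), 9 of 17 tested V1rh genes (0.56) and 3 of 6 tested V1ri genes (0.69). Of the 9 members that rose at least 2-fold, 7 were on chromosome 17 and 2, Vmn1r192 and Vmn1r194, on chromosome 13. Counted length moved with the calls, since 20 of 24 tested genes on the plus strand and 7 of 18 on the minus strand rose, with medians of 0.79 and 0.57, and its part was not tested. The 3 largest differences on chromosome 17 include 2 minus-strand genes, Vmn1r228 and Vmn1r232.

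Among the V1rf genes, Vmn1r237 was at 32.7, 37.4, 35.1 and 40.1 CPM in the 4 pools and at 80.5, 75.7, 80.6 and 84.3 CPM in the 4 flushed libraries. Every flushed library stands above every pool. The log2 difference was 1.15 with an SE of 0.07 (2.21-fold, adjusted p = 1.4e-05), and it was 1.07 within females and 1.23 within males. Vmn1r236 was at 6.97, 8.79, 6.6 and 7.28 CPM in the pools and at 16.5, 12.4, 19 and 17.3 CPM in the flushed libraries (log2 difference 1.13, adjusted p = 7e-05). Vmn1r233 rose from 3.82 ± 0.644 to 7.05 ± 0.732 CPM (SD, n = 4 each, adjusted p = 0.00089) and Vmn1r235 from 4.4 ± 0.825 to 9.77 ± 1.79 CPM. The remaining V1rf gene, Vmn1r234, was at 1.38 ± 0.55 CPM in the pools and at 1.78 ± 0.275 CPM in the flushed libraries (adjusted p = 0.27).

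Among the V1re genes, Vmn1r228, Vmn1r230 and Vmn1r232 had the largest differences of all members. Vmn1r228 was at 2.81, 3.16, 3.37 and 4.6 CPM in the pools and at 9.42, 9.71, 11.5 and 7.69 CPM in the flushed libraries, 2.76-fold higher (adjusted p = 0.00011). No flushed library reached down to the pools. Vmn1r230 rose 2.71-fold, from 3.78 ± 0.843 to 10.2 ± 1.74 CPM, and Vmn1r225 2.33-fold, from 4.22 ± 1.05 to 9.86 ± 1.58 CPM. Vmn1r232 was at 0.432, 1.43, 0.531 and 0.767 CPM in the pools and at 2.65, 2.27, 2.18 and 1.75 CPM in the flushed libraries, with a log2 difference of 1.5 and an SE of 0.32 (adjusted p = 0.0039). Its male pool 2 stands apart from the other 3, and within males alone its difference of 1.09 did not pass (adjusted p = 0.12). The smallest difference among V1re genes was that of Vmn1r226 (log2 0.66), and Vmn1r224, which has no clade name, rose by 0.52 on the log2 scale.

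On chromosome 13 the smallest p-values belonged to Vmn1r194 and the V1rh gene Vmn1r196. Vmn1r194 was at 7.06, 6.65, 8.62 and 8.31 CPM in the pools and at 18.9, 14.6, 15.1 and 16.2 CPM in the flushed libraries, 2.11-fold higher (adjusted p = 4.7e-05). Vmn1r196 rose from 9.89 ± 1.03 to 18.5 ± 1.62 CPM (SD, n = 4 each, 1.86-fold, adjusted p = 8e-05). Neither pair of ranges overlaps. Vmn1r192 rose 2.04-fold and Vmn1r221 and Vmn1r214 1.96-fold. Several other genes of the cluster did not pass, among them the highly expressed V1rh genes Vmn1r210 and Vmn1r220. Vmn1r210 was at 4.67 ± 0.955 CPM in the pools and at 4.49 ± 0.563 CPM in the flushed libraries (log2 difference -0.05 with an SE of 0.17, adjusted p = 0.84), and Vmn1r220 was at 4.5 ± 0.915 and 5.87 ± 0.845 CPM (adjusted p = 0.072). Vmn1r189 was at 0.979 ± 0.215 and 0.949 ± 0.187 CPM, and Vmn1r206 and Vmn1r209 had log2 differences of 0.41 and 0.56 that did not pass (adjusted p = 0.087 and 0.13). Without male pool 2 Vmn1r206 was at 0.58 (adjusted p = 0.032), and without female pool 2 Vmn1r220 was at 0.54 (adjusted p = 0.017). The lowest difference was that of the V1ri gene Vmn1r201, at 0.865, 0.689, 1.02 and 0.716 CPM in the pools and 0.336, 0.392, 0.991 and 0.27 CPM in the flushed libraries (log2 -0.74, adjusted p = 0.16). Flushed male 1 lies among the pools, and without that library the difference was -1.33 (adjusted p = 0.0093).

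**Figure D4:**
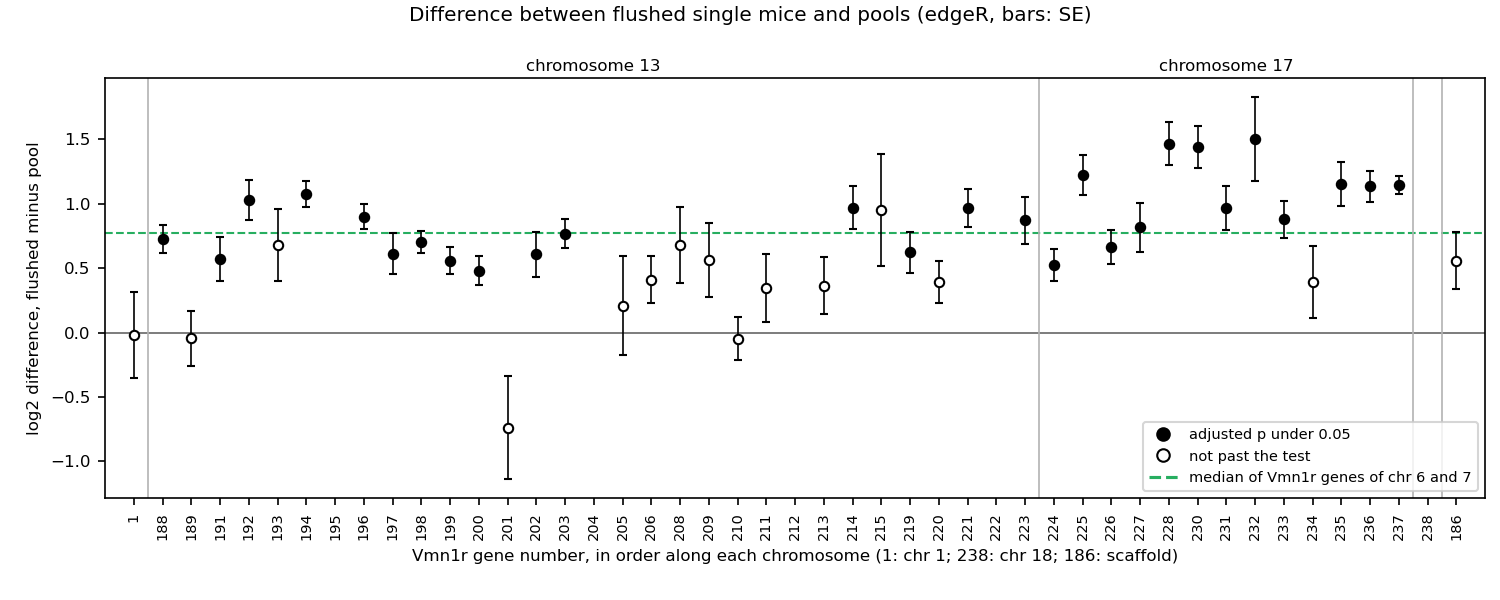
Log2 difference between flushed single mice and pools (y axis, points with SE bars from edgeR) for the 42 tested members in chromosome order (x axis), with filled points past the threshold and a dashed line at the median of the tested Vmn1r genes of chromosomes 6 and 7, 0.77. Chromosome 17 genes lie mostly above the line, 12 of 13 past the threshold, and chromosome 13 genes mostly below it.

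The members apart from both clusters did not pass. Vmn1r1 had 12, 27, 24 and 14 counts in the pools and 23, 29, 30 and 13 in the flushed libraries, or 0.994 ± 0.413 and 0.969 ± 0.273 CPM (SD, n = 4 each, adjusted p = 0.97). Its groups overlap. Vmn1r186 was at 1.32, 0.871, 1.24 and 1.13 CPM in the pools and at 1.54, 1.22, 2.12 and 1.95 CPM in the flushed libraries (log2 difference 0.56 with an SE of 0.22, adjusted p = 0.063). No coding sequence of it was in the transcripts used here, and its counts were not whole in 7 libraries. It passed when genes of low count were not filtered out (adjusted p = 0.048) and without flushed female 3 (adjusted p = 0.039). The share of all genes called was computed for neither of these fits.

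The shares of the Vmn1r total, which need no scaling of libraries, also differed by cluster. The 13 chromosome 17 genes held 19.7, 19.2, 19.4 and 21.2% of Vmn1r counts in the pools and 24, 23.7, 24 and 24.3% in the flushed libraries. The 31 chromosome 13 genes held 22.7, 23.5, 23.6 and 24.6% in the pools and 21.5, 21.5, 21.6 and 21.8% in the flushed libraries. In both clusters the ranges do not overlap, but the shares are parts of 1 total, so that a larger share of one lowers the others. As a percentage of the counts of the Vmn1r genes on chromosomes 6 and 7, chromosome 13 genes stood at 39.9, 41.3, 41.9 and 45.8% in the pools and at 39.6, 39.4, 40 and 40.6% in the flushed libraries, which overlap. Chromosome 17 genes stood at 34.5, 33.8, 34.4 and 39.5% and at 44.3, 43.5, 44.4 and 45.3%, which do not. The summed CPM of both clusters was higher in every flushed library than in every pool, from 83.99 to 103.8 against 143.9 to 159.6 CPM for chromosome 13 and from 72.68 to 89.39 against 158.8 to 177.1 CPM for chromosome 17. Vmn1r237 alone went from 9.1 ± 0.33 to 11.4 ± 0.69% (SD, n = 4 each). All members together held 44 ± 1.5% in the pools and 45.9 ± 0.38% in the flushed libraries, with overlapping ranges. These shares were not tested and serve as a description per library, and the genes were chosen with results known.

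**Figure D5:**
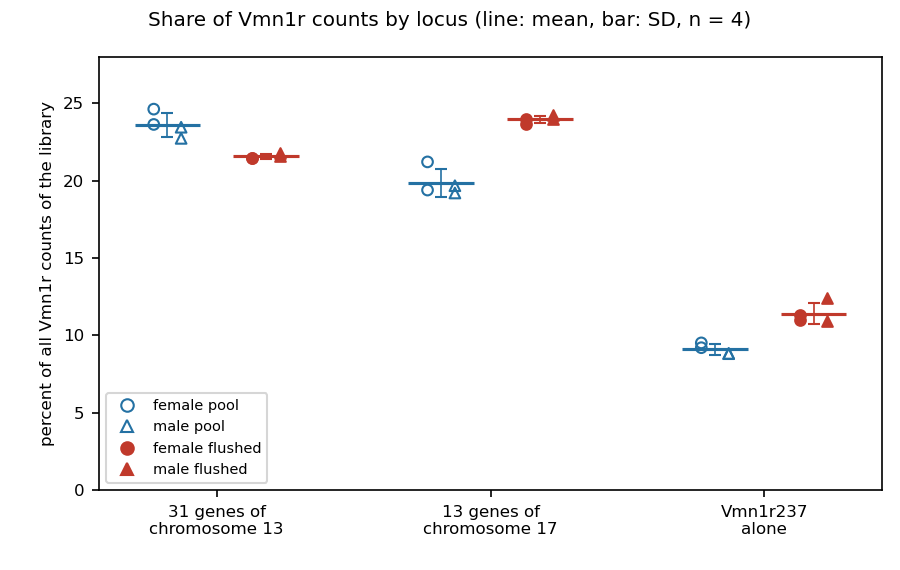
Percent of all Vmn1r counts of a library (y axis) held by the chromosome 13 genes, the chromosome 17 genes and Vmn1r237 alone, with 1 symbol per library (open blue: pools, filled red: flushed, circles: females, triangles: males), the mean as a line and the SD as a bar (n = 4). The shares are parts of 1 total, and the chromosome 13 share is lower and the chromosome 17 share higher in all 4 flushed libraries.

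A scaling added after the data were seen set each member against the Vmn1r genes of chromosomes 6 and 7. With library size taken over those genes alone, 8 members were higher and 6 lower in flushed mice, while 1.57% of all genes were called higher and 77.8% lower. The 8 were Vmn1r194 on chromosome 13 and Vmn1r225, Vmn1r228, Vmn1r230, Vmn1r232, Vmn1r235, Vmn1r236 and Vmn1r237 on chromosome 17. The 6 were Vmn1r189, Vmn1r200, Vmn1r201, Vmn1r210 and Vmn1r220 on chromosome 13, and Vmn1r1. The value was 0.37 for Vmn1r237 (adjusted p = 0.001), 0.69 for Vmn1r228 (adjusted p = 0.0017) and -0.82 for Vmn1r210 (adjusted p = 0.00048). On this scale the direction of the members was mixed, and 8 of the 27 members called above were still called as higher. The median was -0.16 over the 27 tested genes of chromosome 13 and 0.35 over the 13 of chromosome 17.

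The genes between the chromosome 17 members did not all move with them. Fpr-rs3, a formyl peptide receptor gene, rose by 0.88 on the log2 scale and Vmn2r108, of the V2R family, by 1.04. Vmn2r109 was at 0.293 ± 0.15 CPM in the pools and 0.407 ± 0.13 CPM in the flushed libraries (adjusted p = 0.39). Vmn2r110 was at 5.49 ± 0.704 CPM in the pools and 4.49 ± 0.362 CPM in the flushed libraries (SD, n = 4 each, adjusted p = 0.061), Zfp160, a zinc finger gene, rose by 0.74, and Ppp2r1a, which encodes a phosphatase subunit, fell by 0.19. Of the Vmn1r pseudogenes within the spans, 3 on chromosome 13 and 1 on chromosome 17 were abundant enough to be tested, and 1 and 0 of them rose.

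The signal path of V1R neurons did not move as the receptors did. Of 20 listed genes, 19 were tested, 7 rose and 6 fell, with a median of -0.01. Over all 20601 genes tested, 4656 rose and 4721 fell, beside which the counts below are to be read. The subunit genes Gnb1 and Gng2 rose by 0.49 each, and Rtp1 and Rtp2 by 0.26 and 0.23. Gnai2, the alpha subunit of apical neurons, fell by 0.36, and the phosphodiesterase gene Pde4a fell by 0.41. Of the 4 apical markers 1 rose and 2 fell (median -0.18), of 8 tested markers common to vomeronasal sensory neurons 1 rose and 2 fell (median -0.14), and all 6 red blood cell markers fell (median -2.77). Of 5 fibroblast and matrix markers, the collagen genes Col1a1, Col1a2 and Col3a1 fell by 1.3, 1.09 and 1.06 and Dcn and Lum rose by 0.28 and 0.32, and their sum was 33890 to 44480 CPM in the pools and 15760 to 21170 CPM in the flushed libraries. Of 4 tested markers of immature neurons and progenitors, Mki67, a gene of dividing cells, fell by 0.89 and Gap43, a gene of growing axons, by 0.52. Top2a at -0.23 (adjusted p = 0.29) and Neurod1 at 0.57 (adjusted p = 0.14) did not pass. In each of the lists of gland and of smooth muscle and endothelial markers 3 of 5 fell. Of 5 main olfactory neuron markers 1 fell, Adcy3 by 0.38. The median of that list was 0.605, with 3 positive and 2 negative differences, and Cnga2 at 0.89, Gnal at 0.77 and Stoml3 at 0.61 did not pass. Of 4 basal vomeronasal neuron markers 0 passed, with 2 at an unadjusted p under 0.05, beside 10933 of all 20601 genes tested. The part of these shifts in the receptor differences was not tested.

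No member passed the test between males and females. Of 42 tested, 0 were called (24 of all genes were, or 0.116%). An unadjusted p under 0.05 was found for 1640 of all 20601 genes tested and for 4 members. These were Vmn1r199, Vmn1r202, Vmn1r188 and Vmn1r236, with an adjusted p of 0.61 or more, and the median log2 difference of males minus females over the members was -0.04. Vmn1r199 was at 7.39 ± 1.91 CPM in females and 6.19 ± 1.19 CPM in males (SD, n = 4 each), a log2 difference of -0.25 with an SE of 0.11. It was -0.15 within the pools and -0.33 within the flushed libraries. Vmn1r202 differed by -0.4, Vmn1r188 by 0.26 and Vmn1r236 by 0.27. DESeq2 and limma-voom also called 0 members, with 0 and 4 at an unadjusted p under 0.05.

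A sex difference that depends on the preparation was not called in any member. The interaction passed in 0 of 42 members and in 0.0485% of all genes. An unadjusted p under 0.05 was found for 670 of all 20601 genes tested and for 1 member. That 1 was Vmn1r188, the first gene of the chromosome 13 cluster. It was at 7.97, 9.1, 8.59 and 8.47 CPM in the pools and at 12.6 and 11.4 CPM in flushed females and 16 and 17.3 CPM in flushed males. Flushed males were thus above flushed females while the pools overlapped, but the adjusted p of this difference was 1. Red blood cell markers differed between the flushed sexes in the same direction, as given above, with 5 of 6 past the test of the interaction, and their part in the value of Vmn1r188 was not tested. With 2 libraries a group, only large interactions could pass.

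The spread between libraries of a group was mostly small beside the difference by preparation. Around the 4 group means, the residual SD of log2(CPM + 0.5) had a median of 0.214 over the 38 members whose mean count reached 20, where counting error alone would give 0.14. For the 64 such genes of chromosomes 6 and 7 it was 0.195, with a counting error of 0.18. The smallest spread was that of the V1ri gene Vmn1r198 (0.053), followed by Vmn1r214 (0.073) and Vmn1r188 (0.09). Vmn1r198 was at 6.49, 5.91, 6.07 and 5.72 CPM in the pools and at 9.84, 9.64, 9.87 and 10.1 CPM in the flushed libraries. The largest spread was that of Vmn1r232 (0.402), Vmn1r1 (0.397) and Vmn1r234 (0.372), which had low counts. In the 15 members whose mean count reached 150 the median was 0.192 against a counting error of 0.108, and in the 9 such genes of chromosomes 6 and 7 it was 0.192 against 0.079.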

How the data were processed

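Whole-tissue RNA of 8 libraries (4 groups of 2, by sex and preparation in the labels) was analysed. PolyA-selected RNA was read as stranded single ends, per the labels' protocols. The submitters' processing notes name STAR 2.7.1a, featureCounts 1.6.5 and the build GRCm38, also called mm10. What the authors deposited are expected counts, reverse stranded, with a fraction given to each alignment of a read with several, over an Ensembl GRCm38 annotation changed by the authors, per the file headers.

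Symbols came from GENCODE M21, older names from RefSeq (GRCm38.p6), and coding sequences from GENCODE M21 transcripts, aligned with Biopython 1.88. Counts were rounded and tested with edgeR 4.0.16 (R 4.3.3): quasi-likelihood F test, TMM, filterByExpr, sex and preparation as additive terms, the interaction in a further fit, and Benjamini-Hochberg adjustment over all 20601 genes tested. An adjusted p in the text is of that test unless another is named. CPM is the unrounded count per TMM-scaled library size, and RPKM is CPM per kilobase of counted exon. The test was also run on simulated data with the same spread setting for every gene and few changed genes. That setting is unlike these data, so the run gives no error rate for them. DESeq2 1.42.0, limma 3.58.1, other scalings and filters and leaving out libraries were the alternatives. p-values set a difference against the spread between these libraries, and a common spread was estimated for pools and single mice. Counts are of reads without molecular identifiers.

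The members and gene lists were chosen with earlier results of these data known. Named are the isolated members, the 4 highest and 4 lowest tested by RPKM, the extremes of each chromosome, the 4 smallest p-values by preparation and by sex, the 3 largest and smallest spreads, and the closest pairs by coding identity (in place of protein identity, for which no table was used). All other members named, and the genes within the spans, were named after their values were seen.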

Additional observations from a re-analysis of the deposited data

Results flagged for a closer look

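Of 84 sets of 4 values checked for a library that stands far from the other 3 (the CPM of 38 members and 4 shares, in pools and in flushed libraries), 1 was found. The limit used is a critical value that, by its construction, chance passes in about 1 in 20 such sets. Vmn1r213, a V1rh gene of chromosome 13, was at 2.83 CPM in flushed male 3 and at 1.54 to 1.63 CPM in the other 3 flushed libraries.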

How the results depend on the processing

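The count of members that rose in flushed mice was 26 to 31 under DESeq2, limma-voom on unrounded counts, relative log expression scaling, counts rounded down and no filter on low counts, 26 to 28 calls with 1 library left out (with 1 more lower, Vmn1r201, without flushed male 1), and 18 and 20 within females and within males. Of these fits, the share of all genes called was computed only within females (13.2%) and within males (12.3%). The fits also differ in strictness, with an adjusted p for Vmn1r237 of 4.7e-42 under DESeq2 and 1.4e-05 under edgeR. Similar counts are therefore not a result about the members. The counts for sex and for the interaction stayed at 0 in every alternative run. Library size over receptor genes (Vmn1r, Vmn2r and Fpr-rs) gave 13 calls, 3 higher and 10 lower. The scaling over Vmn1r genes of chromosomes 6 and 7, chosen after seeing the data, gave 14, of which 8 were higher and 6 lower. With the latter, 1.57% of all genes were called higher and 77.8% lower. With the former these shares were not computed, so its 10 lower calls cannot be read as a result about the members. These scalings take the shared rise of receptor genes out of each difference by construction.

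Of the 42 tested members, 25 reversed over receptor genes, 15 of them among the 27 called as higher, and 4 of these were then called lower: Vmn1r197 (-0.326, adjusted p = 0.047), Vmn1r199, Vmn1r200 (-0.46, adjusted p = 0.0032) and Vmn1r224 (-0.41, adjusted p = 0.01). Over Vmn1r genes of chromosomes 6 and 7, 21 reversed, 11 of them among the 27, and Vmn1r200 was called lower (-0.3, adjusted p = 0.03). The values that follow are those of the members chosen by the naming rule only. Over receptor genes the log2 difference reversed to -0.211 for Vmn1r188, -0.04 for Vmn1r196, -0.235 for Vmn1r198, -0.377 for Vmn1r199, -0.332 for Vmn1r202, -0.524 for Vmn1r206, -0.378 for Vmn1r209, -0.545 for Vmn1r220, -0.0672 for Vmn1r233, -0.543 for Vmn1r234 and -0.384 for Vmn1r186. Over Vmn1r genes of chromosomes 6 and 7 it reversed to -0.0519 for Vmn1r188, -0.078 for Vmn1r198, -0.218 for Vmn1r199, -0.174 for Vmn1r202, -0.362 for Vmn1r206, -0.213 for Vmn1r209, -0.385 for Vmn1r220, -0.391 for Vmn1r234 and -0.227 for Vmn1r186.

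Differences near 0 changed sign elsewhere, and none of these passed. Vmn1r1 was at 0.0203 under limma-voom, 0.00771 without the filter, 0.251 within females and -0.177 to 0.335 with 1 library left out. Vmn1r210 was at 0.0303 within males and at -0.159 to 0.0922 with 1 library left out, and Vmn1r189 at -0.112 to 0.0267. The sex difference of Vmn1r188 was -0.00121 within the pools. The cause was not tested. The members held 45% of Vmn1r counts, 0.0253% of all counts, and 10.5% of Vmn1r counts when limited to members with whole counts in every library. The median residual SD was 0.243 and 0.148 with pseudocounts of 0.1 and 2.

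No paired analysis was run, because the labels do not say that equal numbers in the titles of pools and single mice mark related animals. Precision is limited by 2 libraries a group and by counts under 50 in 10 of the 38 members counted well enough for a spread, and reads shared between near-identical genes limit the levels of chromosome 13 members most.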
